A study of Mus musculus with 64 samples.

Results

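The genes described here encode the nuclear subunits of the last steps of oxidative phosphorylation in mouse heart. They comprise complex III (cytochrome bc1 complex), cytochrome c, complex IV (cytochrome c oxidase) and the mitochondrial ATP synthase. Members were chosen by symbol: every gene of the deposited gene table whose symbol starts with Uqcr, Cox4 to Cox8 or Atp5, together with Cyc1 and Cycs. This gave 43 genes of the 16913 in the table, namely 9 of complex III, 1 for cytochrome c, 16 of complex IV and 17 of the ATP synthase. They lie on 19 chromosomes, and all 43 passed the filter on low counts, as did every gene of the table. GENCODE M21 lists 54 identifiers that match the symbol rule; those outside the table were not analysed here.

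Bulk RNA was sequenced from hearts of C57BL/6J mice in 8 groups defined by genotype, training and sex. Transgenic (TG) mice carry cTnT-delta160E, a variant of cardiac troponin T used as a model of hypertrophic cardiomyopathy, and nTG mice are the non-transgenic animals. The trained mice ran high intensity interval sessions (HIIT) of 31 min on a treadmill, 3 days a week for 6 weeks, alternating 4 intervals at 85% and 4 at 50% of their group's mean speed in a graded test, and sedentary mice did not exercise. The sedentary groups held 7 nTG males, 9 TG males, 8 nTG females and 8 TG females. The trained groups held 8 nTG males, 8 TG males, 10 nTG females and 6 TG females. These sizes of 6 to 10 come from the sample titles, whereas the text of the series gives 7 to 9 mice a group. Each library is labelled as a biological replicate, so p-values measure the spread between these mice. The promoter that drives the transgene and the age of the mice are not given in the sources used here.

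Complex III passes electrons from ubiquinol to cytochrome c, complex IV passes them from cytochrome c to oxygen, and both pump protons out of the mitochondrial matrix. The ATP synthase lets the protons back through a rotating ring of c subunits and uses the rotation to make ATP in its head. The heart depends on this system for nearly all of its ATP, and striated muscle uses its own isoforms of several small complex IV subunits in place of the widespread ones.

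The promoters of the 4 genes that were lower in TG hearts in all 4 genotype comparisons, and of Uqcrc1, a complex III core gene lower in 3 of them, show the sequence in front of the genes on which the results turn. The windows are RefSeq sequence of the build GRCm38.p6, run 5′ to 3′ on the gene's strand, and hold 250 bases before and 50 after the annotated start of these protein-coding genes, that is, the upstream flank and the first transcribed bases. Capitals mark the motifs found by a search of both strands. These were an NRF1 pattern (GCGC and TGCGC set 1 base apart) and the binding site of estrogen-related receptors (ERR, AAGGTCA). The others were the ETS core CCGGAAG, a MEF2 pattern (CTA and TAG set 4 bases apart) and the E-box CAGCTG. Any base was allowed in the gaps, so these are loose patterns. The NRF1 pattern is a palindrome only where the base in the gap is A. The Cox7a1 window, chr7:30183921-30184220 on the plus strand, held none of them. The Cox5b window, chr1:36691237-36691536 on the plus strand, held the MEF2 pattern in its loose form only, since the 4 bases in the gap, CTTT, are not all A or T. The Atp5b window, chr10:128083057-128083356 on the plus strand, held the E-box letters. The Atp5g3 window, chr2:73911277-73911576 on the minus strand, held the ERR letters in reverse and the NRF1 letters. The Uqcrc1 window, chr9:108936398-108936697 on the plus strand, held the NRF1 letters at positions 5 and 30 after the start.
Cox7a1: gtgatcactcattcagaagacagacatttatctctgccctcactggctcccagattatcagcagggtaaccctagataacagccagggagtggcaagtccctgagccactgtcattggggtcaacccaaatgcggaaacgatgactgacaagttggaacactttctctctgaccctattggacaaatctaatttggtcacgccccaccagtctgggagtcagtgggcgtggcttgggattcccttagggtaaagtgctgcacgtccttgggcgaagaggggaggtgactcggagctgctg
Cox5b: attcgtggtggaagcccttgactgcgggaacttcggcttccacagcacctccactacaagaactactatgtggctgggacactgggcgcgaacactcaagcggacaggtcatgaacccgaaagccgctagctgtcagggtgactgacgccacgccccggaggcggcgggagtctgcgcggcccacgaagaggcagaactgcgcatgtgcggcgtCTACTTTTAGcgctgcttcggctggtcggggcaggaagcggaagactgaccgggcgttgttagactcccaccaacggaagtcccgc
Atp5b: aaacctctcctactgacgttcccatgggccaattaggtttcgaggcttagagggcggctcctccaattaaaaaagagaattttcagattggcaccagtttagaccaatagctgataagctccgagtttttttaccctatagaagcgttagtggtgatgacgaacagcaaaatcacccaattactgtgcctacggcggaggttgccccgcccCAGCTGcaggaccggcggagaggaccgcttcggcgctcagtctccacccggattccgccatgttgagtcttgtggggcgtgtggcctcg
Atp5g3: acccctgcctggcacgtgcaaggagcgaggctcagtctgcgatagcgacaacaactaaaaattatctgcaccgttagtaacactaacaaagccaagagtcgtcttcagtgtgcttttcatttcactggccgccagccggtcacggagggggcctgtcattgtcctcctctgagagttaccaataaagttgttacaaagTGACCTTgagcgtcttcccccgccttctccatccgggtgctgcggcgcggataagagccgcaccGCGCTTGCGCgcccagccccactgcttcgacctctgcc
Uqcrc1: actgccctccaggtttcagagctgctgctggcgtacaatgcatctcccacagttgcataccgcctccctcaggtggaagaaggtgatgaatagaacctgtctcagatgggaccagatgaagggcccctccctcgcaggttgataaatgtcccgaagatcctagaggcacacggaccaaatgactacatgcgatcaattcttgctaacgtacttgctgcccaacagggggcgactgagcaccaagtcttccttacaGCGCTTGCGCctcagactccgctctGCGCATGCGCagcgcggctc

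A RefSeq window was found for 31 of the 43 genes, and 18 of these 31 held at least 1 of the 5 motifs. The NRF1 letters stood in 8 of the 31, against 5.19% of all 27025 genes with a window. The ETS letters stood in 10 of the 31 (9.93% of all genes), the ERR letters in 4 (5.38%), the E-box letters in 2 (18.3%) and the MEF2 letters in 1 (4.23%). These are matches of letters and not measured binding.

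The gene columns of the deposited table carry library names that contradict sex-linked genes and Tnnt2 in many libraries, so each column was matched to the library whose lncRNA column it correlated with best, over 389 autosomal transcripts. All 64 columns found a different and mutual partner, with r from 0.599 to 0.863 and the next best partner at 0.404 or less, and only 1 pair had the same name. After the match no library went against its labelled sex. Tnnt2, which encodes the protein altered in the transgene, was 2665 to 3428 CPM in nTG and 6903 to 12001 CPM in TG libraries (CPM, counts per 1000000). These Tnnt2 values are per plain library total, whereas the CPM values of members and markers below use TMM-scaled library sizes. Taken by their deposited names instead, the columns gave 0 called members in every comparison reported below except 1 in trained against sedentary nTG males. Libraries held 34.6 to 67.1 M gene counts (M stands for 1000000), mitochondrially encoded genes took 13.4% to 20.4%, and the 43 genes took 1.38% to 1.87% of them. The labelled heart tissue was checked with 8 cardiomyocyte markers, all measured, whose summed level was 51798 to 74958 CPM.

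Per length of the principal mRNA (the APPRIS principal transcripts, by their median length), head subunits of the ATP synthase had the highest levels. Group means per kilobase ran from 1908 to 2310 CPM for Atp5b (beta subunit, which holds the catalytic sites) and from 1180 to 1475 CPM for Atp5a1 (alpha subunit). Cox4i1, the widespread form of a complex IV regulatory subunit, had 829.4 to 1028 CPM per kilobase, and Cox6a2, a muscle isoform, 785.1 to 1023, so the ranges of these 2 genes overlap. The order depends on the length used: per kilobase of all annotated exons Atp5a1 had 930.4 to 1162, Atp5b 862.7 to 1045, Cox6a2 785.1 to 1023 and Cox4i1 404 to 500.6 CPM, and the ranges of the first 3 overlap. Uqcrc1 (core protein of complex III) had 666.5 to 834.7 and Cox7a1 (muscle isoform of a small complex IV subunit) 446.5 to 606.9 CPM per kilobase. At the other end stood Atp5s at 5.398 to 6.629, Cox4i2 at 5.197 to 6.154 and Cox6b2, known as a testis isoform, at 0.5038 to 1.141 CPM per kilobase.

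Members of complex IV and the ATP synthase were called lower in TG than in nTG hearts in every combination of sex and training, and members of complex III in all but sedentary females. The number called was largest in sedentary males. A gene is called where edgeR's quasi-likelihood test, adjusted over all 16913 genes by Benjamini-Hochberg, gave p under 0.05. In sedentary males 33 of 43 members were lower and 0 higher, against 11.2% of all genes lower (9.39% higher). The median log2 difference (TG minus nTG) was -0.27 over the members and -0.0052 over all genes. In trained males 16 members were lower (8.31% of all genes, 5.65% higher), with a median of -0.12. Among sedentary females the count was 4 (2.78% of all genes, 1.58% higher), also with a median of -0.12. Among trained females it was 15 (9.43% of all genes, 5.37% higher), with a median of -0.16. For the mean of the 4 comparisons 38 members were lower (20.5% of all genes, 18.5% higher), with a median of -0.16. No member was called higher in TG hearts in any of these comparisons. Other settings moved some counts by more than 1.5 times. With an offset for the GC content of transcripts 9 members were called in trained males and 7 in trained females. Limma voom called 12 in sedentary and 26 in trained females, and a block on replicate number left 9 in trained females. A fit of only the groups compared gave 10 in trained males and 2 in sedentary females. Scaling libraries to cardiomyocyte markers, described further below, lowered the count in each of the 4 comparisons, and that for their mean to 12. In bulk tissue, fewer cells of a type and less RNA per cell cannot be told apart.

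**Figure D1:**
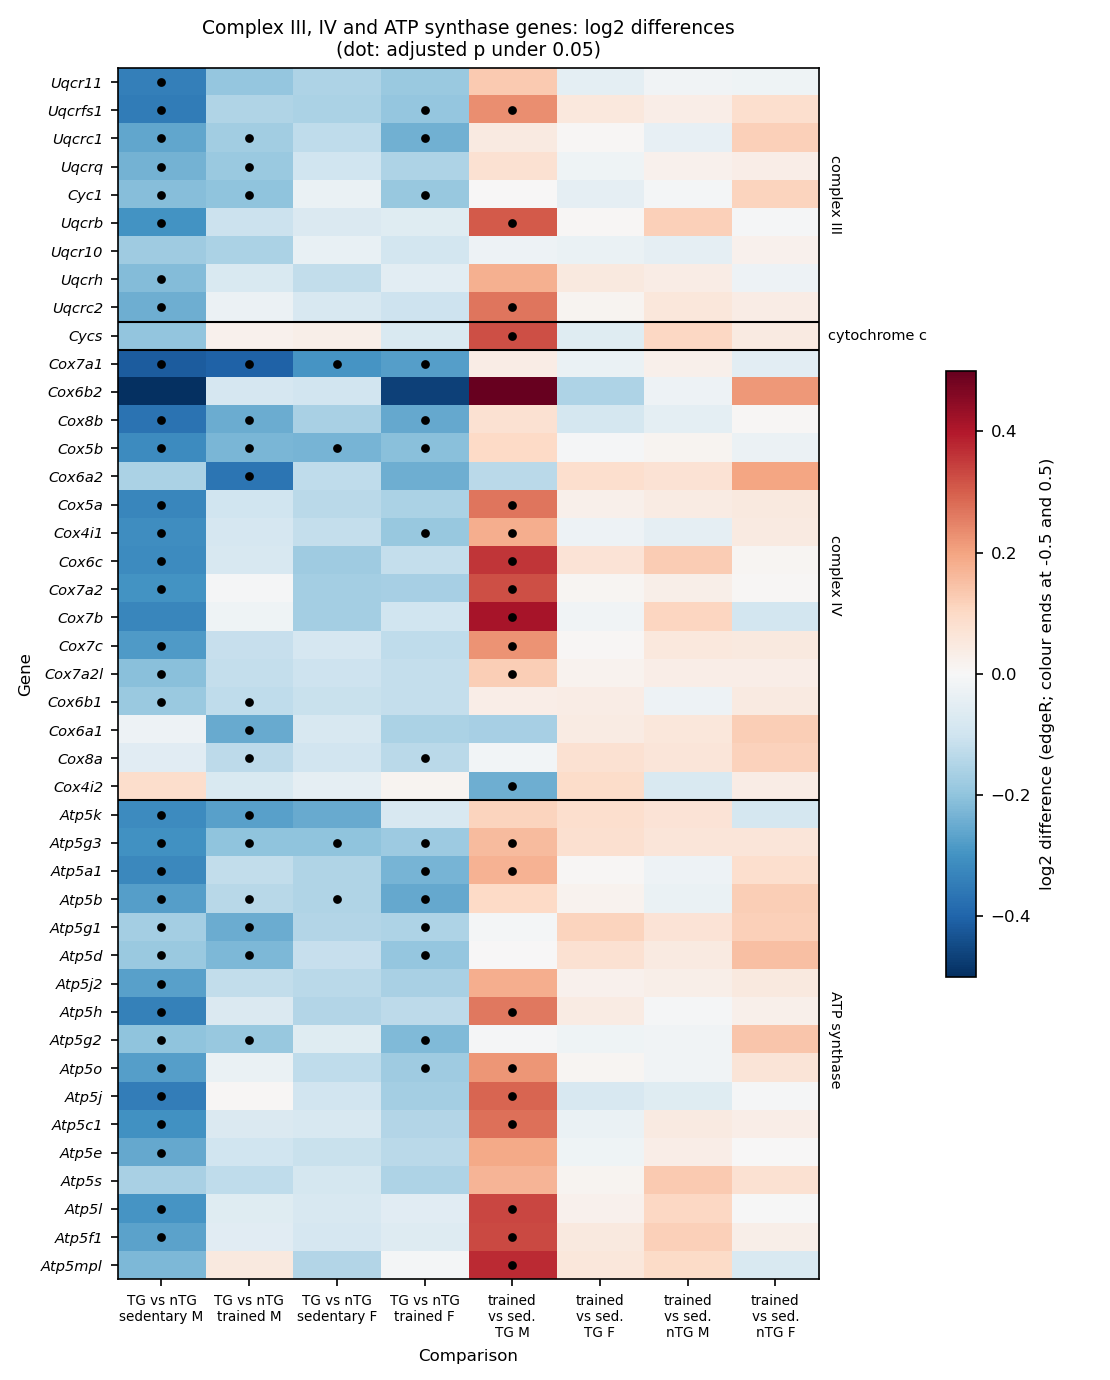
Log2 differences of the 43 genes (rows, grouped by complex) in the 4 TG against nTG and the 4 trained against sedentary comparisons (columns); the colour gives the edgeR log2 difference and a dot marks adjusted p under 0.05. The sedentary male genotype column holds 33 dots, all for lower genes, and the column of training in TG males holds 20 for higher genes and 1 for a lower one.

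By complex, the calls in sedentary males were 8 of 9 for complex III, 10 of 16 for complex IV and 15 of 17 for the ATP synthase, and Cycs did not pass. In the same order of complexes they were 3, 7 and 6 for trained males, 0, 2 and 2 for sedentary females, and 3, 5 and 7 for trained females. Atp5b, Atp5g3, Cox5b and Cox7a1 were called lower in 4 of 4 comparisons. With the GC offset Cox7a1 alone passed in 4, since Atp5b (adjusted p = 0.071) and Cox5b (0.070) lost the call in trained males, and Atp5g3 (0.074) and Cox5b (0.083) in trained females. Atp5d, Atp5g1, Atp5g2, Cox8b, Cyc1 and Uqcrc1 were called lower in 3 of 4, 8 members in 2, 18 in 1 and 7 in 0. The log2 difference was negative in 4 of 4 comparisons for 39 members; the exceptions were Atp5j, Atp5mpl, Cox4i2 and Cycs. Whether the genotype difference itself differed between groups was tested as an interaction: 0 members and 0 genes passed for genotype by sex in sedentary mice or for genotype by training in either sex. At an unadjusted p under 0.05 there were 7 members for genotype by sex (16.3%, against 8.70% of all genes), 13 for genotype by training in males (30.2% against 14.8%) and 2 in females (4.65% against 6.46%). DESeq2 called 0 members in each of these 3, and limma voom called 5 for genotype by training in males and 0 in the others. The female counts moved with single libraries: the 4 calls of sedentary females became 9 without nTG replicate 4 or TG replicate 7 and 2 without any of 10 others, and the 15 of trained females became 8 without TG replicate 4 and 9 without TG replicate 3 or 5. The 16 of trained males became 9 without TG replicate 4.

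**Figure D2:**
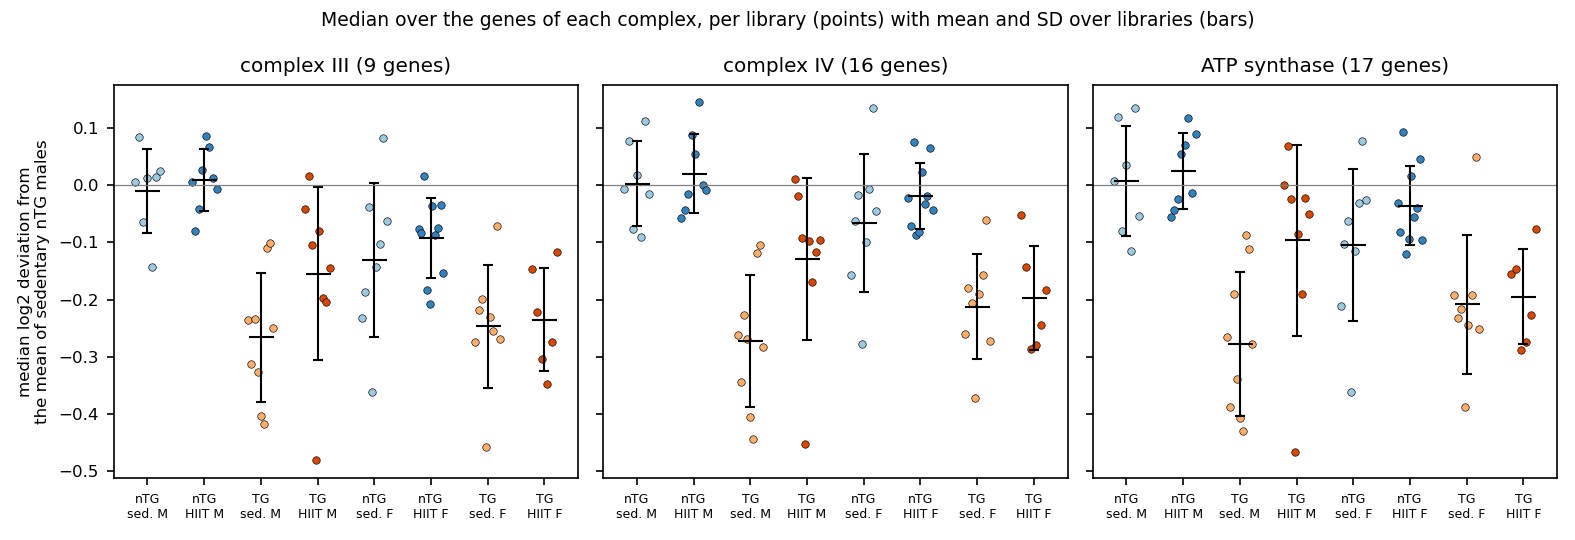
Median log2 deviation from the mean of sedentary nTG males over the genes of complex III, complex IV and the ATP synthase (vertical axis) in each library (points), with mean and SD over the libraries of each of the 8 groups (bars). Sedentary TG males reach at most -0.087 in any of the 3 panels, and trained TG male replicate 4 lies lowest of its group.

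The median deviation over the 17 ATP synthase genes shows the spread between mice. From the lowest to the highest library with the median between, it was -0.12, 0.0070 and 0.14 in sedentary nTG males and -0.43, -0.28 and -0.087 in sedentary TG males. The highest TG library thus lay above the lowest nTG library. In trained TG males it was -0.47, -0.037 and 0.069, against -0.055, 0.021 and 0.12 in trained nTG males, so these groups overlap. In females it was -0.36, -0.082 and 0.077 in sedentary nTG, -0.39, -0.22 and 0.050 in sedentary TG, -0.12, -0.047 and 0.093 in trained nTG and -0.29, -0.19 and -0.077 in trained TG libraries. The female groups overlap in both training states.

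In complex III all 4 core and electron-carrying subunits were lower in sedentary TG males. Uqcrc1, the first core protein, was 1228, 1378 and 1482 CPM (lowest, median, highest) in sedentary nTG and 1016, 1146 and 1286 CPM in sedentary TG males, where 8 of 9 TG libraries lay below every nTG library. Its log2 difference was -0.26 ± 0.05 (SE; adjusted p = 4.9e-05). In trained females Uqcrc1 was 1210, 1326 and 1415 CPM in nTG and 1005, 1114 and 1179 CPM in TG libraries, and the groups did not overlap (log2 difference -0.24, adjusted p = 0.00046). Trained males differed by -0.17 (adjusted p = 0.0085), a call lost with the GC offset (-0.11, adjusted p = 0.13). Sedentary females differed by -0.13 without passing (adjusted p = 0.11).

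Uqcrfs1, the Rieske iron-sulfur protein that takes the first electron from ubiquinol, was 338, 386.5 and 433.5 CPM in sedentary nTG and 270.5, 307.3 and 351.2 CPM in sedentary TG males. Of the 9 TG libraries 8 lay below every nTG library, and the log2 difference was -0.35 ± 0.06 (adjusted p = 1.2e-05). It also passed in trained females (-0.19, adjusted p = 0.022), and in trained males with the GC offset only (-0.16, adjusted p = 0.032). Cyc1, the cytochrome c1 subunit that hands the electron to cytochrome c, was 380, 417.4 and 464.4 CPM in sedentary nTG and 325, 356.9 and 406.2 CPM in sedentary TG males, with 7 of 9 TG libraries below every nTG library. Its log2 difference was -0.21 in sedentary males (adjusted p = 0.0012), -0.20 in trained males (0.0031), -0.19 in trained females (0.0083) and -0.03 in sedentary females (0.82). With the GC offset Cyc1 lost the call in trained males (-0.13, adjusted p = 0.13) and trained females (-0.15, 0.073). Among the 5 small subunits of complex III, 4 were called lower in sedentary males, 1 in trained males and 0 in either female comparison. Uqcr11, one of them, had -0.34 (adjusted p = 0.00027) in sedentary males, and Uqcr10 had -0.18 (0.060).

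Cycs, the cytochrome c of somatic cells that shuttles electrons between both complexes, was not called in any of the 4 genotype comparisons or in their mean (-0.06, adjusted p = 0.34), though the mean passed with the GC offset (-0.09, adjusted p = 0.014). It was 137, 149.2 and 186.2 CPM in sedentary nTG and 114, 133.8 and 152 CPM in sedentary TG males, with overlap (log2 difference -0.20, adjusted p = 0.11). The difference was 0.02 in trained males, and females had 0.03 when sedentary and -0.08 when trained. The signs of the first 2 of these are not stable: the GC offset gave -0.08 and -0.0027, and leaving out single libraries gave -0.0381 to 0.0715 and -0.0996 to 0.0616. Cycs has processed copies elsewhere in the genome, as do other small members, and how reads shared with such copies were counted is not given in the sources used here.

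In complex IV the muscle isoform Cox7a1 had the smallest p of all members for the mean genotype difference. In sedentary males it was 212.4, 224.1 and 275.2 CPM in nTG and 144.0, 176.4 and 204.6 CPM in TG libraries. All 9 TG libraries lay below all 7 nTG libraries. Its level fell by 25.1% (log2 difference -0.42 ± 0.07, adjusted p = 9.8e-06). In trained males it was 190.3, 239.4 and 266.9 CPM in nTG and 135.6, 185.5 and 206.9 CPM in TG libraries, and 7 of 8 TG libraries lay below every nTG library. The log2 difference there was -0.41 ± 0.07 (adjusted p = 2.5e-05). In females the medians were 222.4 against 189.5 CPM in sedentary and 225.9 against 183.2 CPM in trained mice, nTG before TG, with overlap in both. The log2 differences were -0.30 (adjusted p = 0.0048) and -0.28 (0.0053). Over all libraries 18 of 31 TG libraries lay below each of the 33 nTG libraries, and the mean log2 difference was -0.35 ± 0.03 (adjusted p = 1.5e-12).

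Cox5b, a single-copy subunit on the matrix side that binds zinc, followed the same order. In sedentary males it was 223.7, 244.2 and 279.2 CPM in nTG and 182.9, 199.9 and 227.1 CPM in TG libraries, with 8 of 9 TG libraries below every nTG library. The log2 difference was -0.32 ± 0.06 (adjusted p = 3.0e-05), and trained males had -0.23 (0.0028), sedentary females -0.23 (0.0061) and trained females -0.21 (0.0097). Over all libraries 16 of 31 TG libraries lay below every nTG library, the same count as for Atp5k of the ATP synthase. These counts over all libraries, that of Cox7a1 included, were not set against all genes. The muscle isoform Cox8b was 131.6, 153.2 and 175.8 CPM in sedentary nTG and 104.6, 115.5 and 136.2 CPM in sedentary TG males, with 8 of 9 TG libraries below every nTG library. It was called in both male comparisons (-0.37, adjusted p = 0.00046, and -0.25, adjusted p = 0.028) and in trained females (-0.26, adjusted p = 0.028), and had -0.16 in sedentary females (adjusted p = 0.29). With the GC offset Cox8b lost the call in trained males (-0.18, adjusted p = 0.17) and trained females (-0.21, 0.11). The third muscle isoform, Cox6a2, was called in the mean of the 4 comparisons (-0.22, adjusted p = 3.1e-05) and, of the 4, in trained males alone. There it was 613.8, 700.5 and 789.1 CPM in nTG and 432, 518.9 and 653.3 CPM in TG libraries (-0.37 ± 0.09, adjusted p = 0.0023), with 7 of 8 TG libraries below every nTG library.

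**Figure D3:**
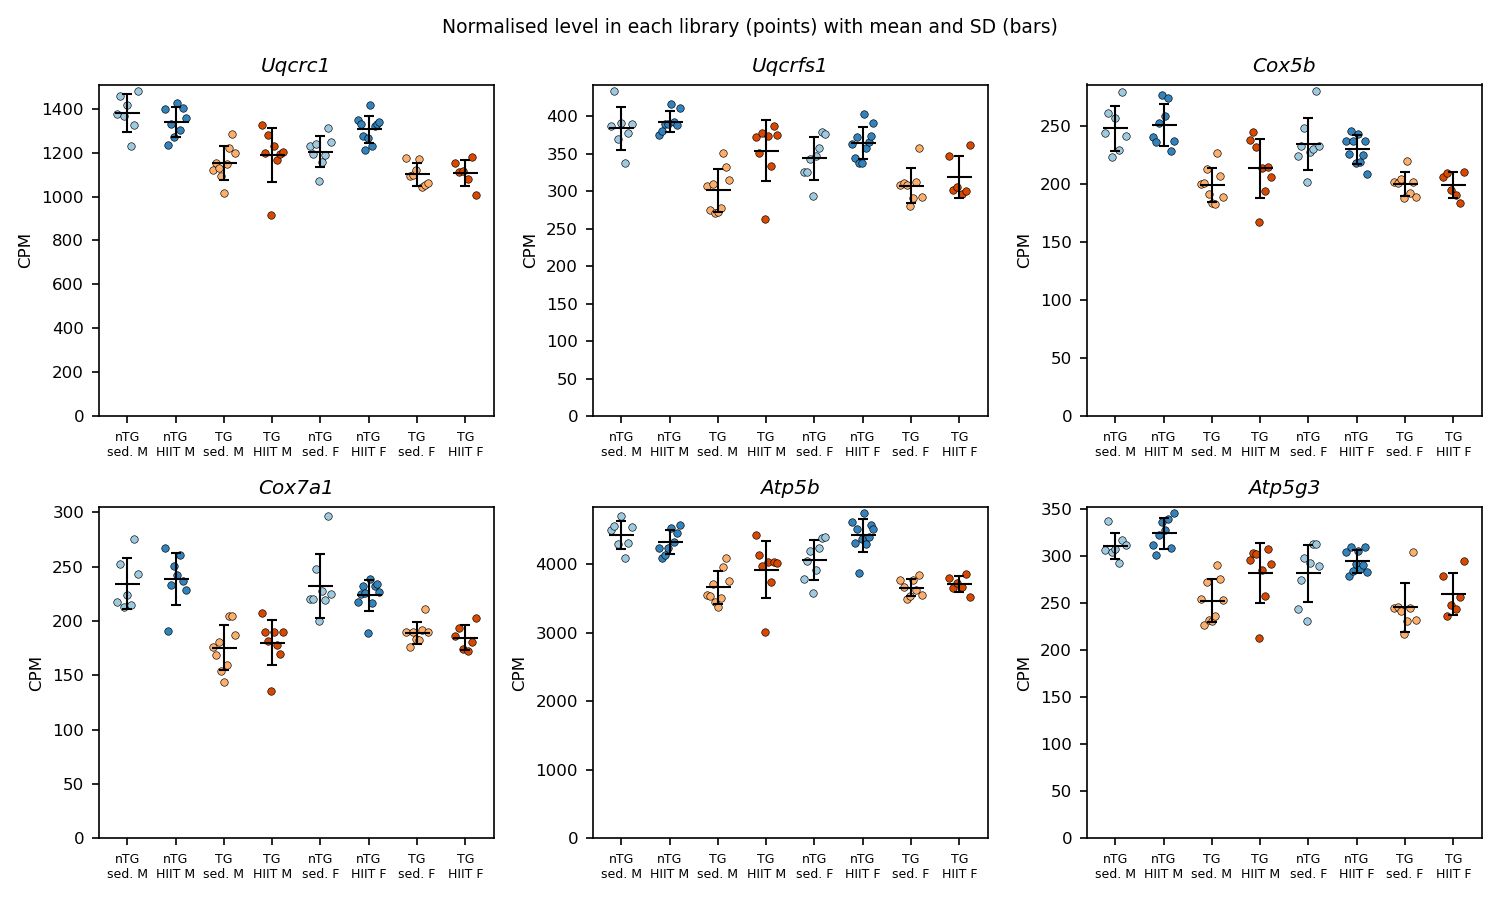
Normalised level in CPM (vertical axis, from 0) of Uqcrc1, Uqcrfs1, Cox5b, Cox7a1, Atp5b and Atp5g3 in each library (points) of the 8 groups, with mean and SD (bars). For Cox7a1 all 9 sedentary TG males, at most 204.6 CPM, lie below all 7 sedentary nTG males, at least 212.4 CPM.

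The widespread isoforms of complex IV subunits were called in 3 of 5 cases for either male comparison, in 0 of 5 for sedentary and 2 of 5 for trained females. Cox4i1 had -0.31 in sedentary males (adjusted p = 6.8e-05) and -0.19 in trained females (0.025), the second of which was lost with the GC offset (-0.15, adjusted p = 0.18). Cox7a2, the widespread counterpart of Cox7a1, had -0.30 in sedentary males (adjusted p = 0.0052) but -0.01 in trained males (0.97; 0.02 with the GC offset). Cox6a1 showed the reverse order, with -0.03 in sedentary (0.85) and -0.25 in trained males (adjusted p = 0.014). In trained males Cox6a1 was 35.39, 36.53 and 43.43 CPM in nTG and 29.84, 32.71 and 33.43 CPM in TG libraries, and it was the only member without overlap there (1.29% of all genes had every TG library below every nTG library). Cox8a was called in trained males and trained females, each with -0.13 (adjusted p = 0.045), and in neither with the GC offset (-0.06, adjusted p = 0.41, and -0.10, adjusted p = 0.16). Cox6b1 had -0.19 in sedentary (0.0015) and -0.13 in trained males (0.043), where the GC offset gave -0.10 (adjusted p = 0.089). Cox4i2, an isoform known from lung, Cox6b2 and Cox7b were called in none of the 4 genotype comparisons, but in their mean Cox6b2 was lower (-0.33, adjusted p = 0.032; 0.0504 and not called with the GC offset). Cox7a2l, a relative of the Cox7a genes that acts in supercomplex assembly, was called in sedentary males alone of the 4 (-0.21, adjusted p = 0.00069) and in the mean (-0.14, adjusted p = 2.1e-06). With libraries scaled to cardiomyocyte markers 3 of these values changed sign. They were 0.0059 for Cox7a2l in the mean, 0.0044 for Cox6b1 in sedentary males and 0.0351 for Cox8a in trained females.

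In the ATP synthase the head and central stalk, which hold the catalytic and the rotating parts, were called lower in 5 of 5 genes in sedentary males. Atp5b was 4088, 4494 and 4708 CPM in sedentary nTG and 3374, 3544 and 4091 CPM in sedentary TG males, and only 1 TG library reached the nTG range (-0.27 ± 0.05, adjusted p = 1.7e-05). In trained females it was 3864, 4448 and 4750 CPM in nTG and 3523, 3700 and 3854 CPM in TG libraries, without overlap (-0.25, adjusted p = 0.00016). The log2 difference was -0.14 in trained males (adjusted p = 0.033) and -0.15 in sedentary females (0.044). Atp5a1 was 3288, 3614 and 3920 CPM in sedentary nTG and 2591, 2867 and 3319 CPM in sedentary TG males, with 8 of 9 TG libraries below every nTG library. Its difference was -0.32 ± 0.05 (adjusted p = 2.7e-06), and in trained females it was -0.23 (0.0010), again without overlap. Atp5d, the delta subunit of the central stalk, had -0.19 in sedentary males (adjusted p = 0.0023), -0.23 in trained males (0.00040) and -0.19 in trained females (0.0038). The first of these turned to 0.0045 with libraries scaled to cardiomyocyte markers.

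Atp5g1, Atp5g2 and Atp5g3 encode the same mature c subunit of the rotor ring, and all were called lower in both male comparisons and in trained females. With the GC offset Atp5g2 lost its call in trained males (adjusted p = 0.108), and Atp5g1 (0.062) and Atp5g3 (0.074) lost theirs in trained females. Atp5g3 was 293.2, 308.2 and 337.9 CPM in sedentary nTG and 227.2, 254.0 and 290.8 CPM in sedentary TG males. All 9 TG libraries lay below all 7 nTG libraries (-0.30 ± 0.06, adjusted p = 0.00019). It also passed in trained males (-0.20, adjusted p = 0.017), sedentary females (-0.20, 0.041) and trained females (-0.18, 0.041). Atp5g1 had -0.17 (adjusted p = 0.0068) in sedentary and -0.25 (0.00018) in trained males, and Atp5g2 had -0.20 (0.0031) and -0.19 (0.0082). With libraries scaled to cardiomyocyte markers Atp5g1 turned to 0.0197 in sedentary males and 0.0126 in trained females. The 4 peripheral stalk genes, whose proteins hold the head still, were called in 4 of 4 cases for sedentary males, 0 for trained males or sedentary females and 1 for trained females. Of the 5 small membrane and other subunits 3 were called in sedentary males, 1 in trained males and 0 in females.

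Members without overlap between genotypes were few. They were Atp5g3 and Cox7a1 in sedentary males (1.3% of all genes), Cox6a1 in trained males, 0 in sedentary females (0.284%) and Atp5a1, Atp5b, Atp5o and Uqcrc1 in trained females (2.04%). Of these calls Atp5o was lost with the GC offset (adjusted p = 0.16).

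Markers of several cell types moved with genotype. In sedentary males 5 of 8 cardiomyocyte markers were lower in TG libraries, with a summed level of 56138 to 65716 CPM against 62488 to 74524 CPM in nTG. All 8 fibroblast markers (862.7 to 1518 against 776.5 to 1040 CPM) and all 8 macrophage markers (237.2 to 398.7 against 179.9 to 242.6 CPM) were higher. Of the same lists 3, 4 and 5 markers were called in these directions for trained males, 1, 1 and 0 for sedentary females, and 4, 4 and 6 for trained females. Of 9 measured blood markers 7 were lower in TG than in nTG trained males (summed level 276.5 to 579 against 597.8 to 1146 CPM, median log2 difference -1.19), 1 was higher in sedentary males, and 0 passed in females. Of 8 endothelial markers 0, 1, 0 and 0 were called in the 4 comparisons, and of 8 smooth muscle and pericyte markers 1 in each, all lower. Of all genes 11.2%, 8.31%, 2.78% and 9.43% were lower in these comparisons, males first, each sex sedentary before trained. In the same order 9.39%, 5.65%, 1.58% and 5.37% were higher, so that single calls in a list of 8 say little. Of 8 skeletal muscle markers only 2 were measured, and 1 of them, Myl1, was higher in TG hearts in all 4 comparisons (log2 difference 1.63 to 1.97). The sum of both was 27.38 to 60.84 against 7.244 to 12.95 CPM in sedentary TG and nTG males. Of 7 atrial markers Stard10 was lower in sedentary males. Of 4 fat markers Cfd was higher in sedentary males, and Cidea was lower in trained males and trained females. These 4 genes were named after their values were seen. With libraries scaled to the 8 cardiomyocyte markers, a setting chosen after seeing the data, the median over all genes moved to 0.19 and 0.13 for sedentary and trained males and to 0.095 and 0.17 for sedentary and trained females. In sedentary males 14 members were then called, 12 lower and Cox4i2 and Cox8a higher (0.28 and 0.14). Trained males had 5, sedentary females had Cox5b and Cox7a1, and trained females Atp5b. This scaling cannot separate cell makeup from lower expression of the markers themselves, of which 5 of 8 were called lower in sedentary TG males. The part of cell makeup, blood included, in the genotype differences was not tested.

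Trained TG males had higher levels of 20 members than sedentary TG males, against 10.3% of all genes, and a lower level of 1, Cox4i2 (7.6% of all genes). The median log2 difference (trained minus sedentary) was 0.17 over the members and 6.7e-05 over all genes. By complex 3 of 9 genes of complex III, Cycs, 7 of 16 of complex IV and 9 of 17 of the ATP synthase were higher. By role, all 4 peripheral stalk genes and 4 of 5 single-copy subunits of complex IV were called, but 0 of the 3 muscle isoforms of complex IV and 1 of the 3 c subunit genes. This comparison shares the sedentary TG males with the genotype comparison above, so that 17 members counted as lower there and higher here rest on the same 9 libraries.

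The 3 members with the smallest p were Atp5h and Atp5f1, subunits d and b of the peripheral stalk, and Cox6c, a small subunit of complex IV. Atp5h was 250.5, 269.9 and 316.6 CPM in sedentary and 247.1, 346.4 and 367.8 CPM in trained TG males (0.26 ± 0.06, adjusted p = 0.0022). Atp5f1 was 208.1, 240.9 and 279 CPM in sedentary and 234.9, 304.4 and 350.5 CPM in trained TG males (0.33 ± 0.07, adjusted p = 0.0023). Cox6c was 127.9, 142.5 and 171.8 CPM in sedentary and 130.7, 189.4 and 234.3 CPM in trained TG males (0.36 ± 0.08, adjusted p = 0.0026). For each gene the groups overlap, and 6, 7 and 7 of the 8 trained libraries lay above every sedentary one. Uqcrfs1 rose by 0.23 on the log2 scale (adjusted p = 0.0039), Atp5a1 by 0.17 (0.0093) and Cycs by 0.32 (0.0079). Cox4i2 was 3.922, 4.497 and 5.175 CPM in sedentary and 3.356, 3.505 and 4.73 CPM in trained TG males (-0.24 ± 0.09, adjusted p = 0.040). Cox7a1 had 0.04 (adjusted p = 0.75), Cox5b 0.10 (0.19), Uqcrc1 0.05 (0.53), Cyc1 0.00 (0.99) and Atp5b 0.10 (0.11), so none of these passed. With the GC offset described next Uqcrc1 did (0.16, adjusted p = 0.045), as did Atp5d (0.17, 0.040, against 0.00 without it).

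This training comparison ran with the base composition of the transcripts. Across the 43 members Spearman's rho between the log2 difference and the GC percent of the coding transcripts was -0.622, and across the 16879 genes with a GC value it was -0.55, as a description over genes that share the same libraries. The median difference over all genes went from 0.158 among genes with the lowest GC (up to 44.7%) to -0.14 among those with the highest (from 56.1%). The 20 higher members had 40.83% to 57.58% GC with a median of 48.85%, and the other 23 had 49.21% to 62.29% with a median of 55.53%. The GC tilt of a library (median log2 deviation of the genes up to 44.7% GC minus that of the genes from 56.1%) was -0.215 to -0.040 in sedentary and 0.060 to 0.403 in trained TG males, without overlap, so that tilt and training cannot be told apart by these groups. With an offset that removes the trend on GC in each library, chosen after seeing the data, 15 members were higher and 0 lower, 13 of them shared with the fit without the offset. The rho across the members was then -0.0698, which is no separate result, since the offset is built to remove this trend over all genes. The median over the members was then 0.178. Atp5h (0.24, adjusted p = 0.011), Atp5f1 (0.21, 0.032), Cox6c (0.31, 0.014), Uqcrfs1 (0.18, 0.035) and Atp5a1 (0.20, 0.014) still passed, while Cycs (0.13, 0.165), Cox7b (0.25, 0.205), Atp5g3 (0.15, 0.124) and Cox4i2 (-0.14, 0.374) did not. Under the same offset 33 members stayed lower in sedentary TG males, all 33 shared, and the other 3 genotype comparisons had 9 (trained males), 4 (sedentary females) and 7 (trained females), of which 7, 4 and 7 were shared. A GC trend was not particular to training in TG males. Before the offset rho across members (all genes) was -0.502 (-0.324) for genotype in trained males and -0.489 (-0.17) in trained females. It was 0.15 (0.1) in sedentary males, -0.0353 (-0.0162) in sedentary females and -0.562 (-0.183) for training in nTG males.

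**Figure D4:**
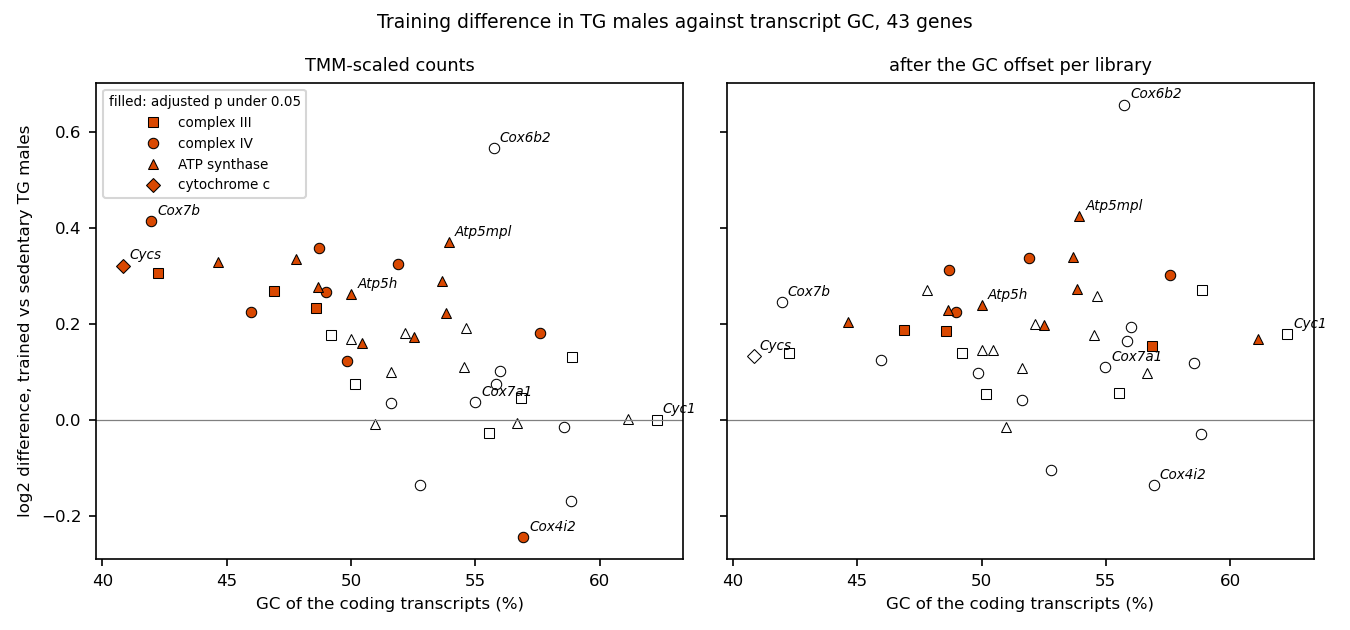
Log2 difference between trained and sedentary TG males (vertical axis) against the GC percent of the coding transcripts (horizontal axis) for the 43 genes, before (left) and after (right) the GC offset; filled points have adjusted p under 0.05. Before the offset rho is -0.622 and the higher genes crowd at low GC. After it rho is -0.0698, as the offset is built to remove this trend over all genes.

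Other measures also differed between these 2 groups. Of the 9 blood markers 7 were lower in trained than in sedentary TG males, with a summed level of 276.5 to 579 CPM against 309.5 to 4716 CPM in sedentary ones, where replicate 5 alone held the highest value. Among cardiomyocyte markers 2 of 8 were higher, and 5 of 8 macrophage, 2 of 8 fibroblast, 2 of 8 endothelial and 2 of 8 smooth muscle and pericyte markers were lower. Of all genes 10.3% were higher and 7.6% lower in this comparison, so that counts of 2 of 8 say little. No atrial, fat or skeletal muscle marker passed. Their part in the training difference was not tested. Trained TG male replicate 4 stood apart, with the lowest cardiomyocyte sum of all libraries (51798 CPM) and the highest fibroblast sum (1897 CPM). Without it 27 members were called in this comparison in place of 21.

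Training was not followed by called differences of members in the other 3 pairs of groups. In TG females and in nTG males 0 of all 16913 genes passed, so that 0 called members says nothing about the members there. In TG females 1 member had an unadjusted p under 0.05 (2.33%, against 3.58% of all genes), with a median log2 difference of 0.01. Sedentary and trained TG females had, for example, 268.7, 289.8 and 340.2 against 267.3, 297.9 and 340.8 CPM of Atp5h, nearly the same range. In nTG males 0 had an unadjusted p under 0.05 (5.91% of all genes), with a median of 0.03. In nTG females 0 members passed, where edgeR called 0.148% of all genes. There 8 members had an unadjusted p under 0.05 (18.6%, against 14.2% of all genes), and 33 of 43 differences were positive (76.7%, against 49.4% of all genes), with a median of 0.04. The smallest adjusted p there was 0.142, for Atp5d (0.15 ± 0.04). With DESeq2 the counts in these 3 pairs were 0, 0 and 1, and with limma voom 0, 0 and 0. The difference of the training effect between TG males and TG females was tested as an interaction: 0 members and 0 genes passed, 19 members had an unadjusted p under 0.05 (44.2%, against 18.1% of all genes), and the smallest adjusted p of a member was 0.103. DESeq2 called 1 member and limma voom 11 for it, and edgeR called 6 without trained TG male replicate 4, 5 without trained TG female replicate 6 and 1 without sedentary TG female replicate 4.

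Between sexes, sedentary nTG females and males differed in 1 member (2.22% of all genes in either direction). Uqcrc1 was 1072, 1211 and 1310 CPM in females and 1228, 1378 and 1482 CPM in males, with overlap (-0.20 ± 0.05, adjusted p = 0.016). The log2 difference, female minus male, was negative for 36 of 43 members (83.7%, against 50.2% of all genes). The count became 0 without nTG male replicate 2 or 7 or nTG female replicate 4, 2 without nTG male replicate 5 or 6, and 3 without nTG female replicate 7.

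Ratios of paralogous subunits compare mRNAs within a library, so that library scaling has no part in them. Of 48 exact permutation tests (6 ratios in 8 comparisons, two-sided, chosen after seeing the data) 6 passed an adjusted p of 0.05. The Cox7a1 to Cox7a2 log2 ratio of counts, muscle over widespread isoform, was 0.963, 1.242 and 1.538 in trained nTG and 0.5717, 0.8504 and 0.9702 in trained TG males, with a difference of means of -0.39 (exact permutation p = 0.000311, adjusted 0.00497). The highest TG library just exceeded the lowest nTG library. In sedentary TG males it was 0.9479, 1.155 and 1.231, so trained TG males were lower by a difference of -0.28 (exact permutation p = 0.0001645, adjusted 0.00395). The Cox8b to Cox8a ratio was 0.8364, 0.969 and 1.422 in sedentary nTG and 0.5821, 0.7095 and 0.9812 in sedentary TG males (difference -0.32, exact permutation p = 0.0014, adjusted 0.0168), with overlap. The Cox4i2 to Cox4i1 ratio was -7.802, -7.582 and -7.199 in sedentary nTG and -7.507, -7.071 and -6.758 in sedentary TG males (difference 0.40, exact permutation p = 0.00297, adjusted 0.0285).

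The c subunit genes also changed relative to each other. The Atp5g1 to Atp5g3 log2 ratio was 0.849, 0.9507 and 1.066 in sedentary nTG, 0.9986, 1.037 and 1.246 in sedentary TG and 0.7406, 0.9604 and 1.001 in trained TG males. Sedentary TG males differed from sedentary nTG males by 0.13 (exact permutation p = 0.00507, adjusted 0.0406), and trained from sedentary TG males by -0.17 (exact permutation p = 0.0001645, adjusted 0.00395). No test in females passed (smallest adjusted p of an exact permutation test 0.2704), nor did Cox6a2 to Cox6a1 or Atp5g2 to Atp5g3. The GC of the paired transcripts was 54.98% and 51.90% for Cox7a1 and Cox7a2, 55.83% and 58.55% for Cox8b and Cox8a, 56.92% and 57.58% for Cox4i2 and Cox4i1, and 50.98% and 50.45% for Atp5g1 and Atp5g3. With the GC offset the training difference in TG males was 0.11 for Cox7a1 and 0.34 for Cox7a2.

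**Figure D5:**
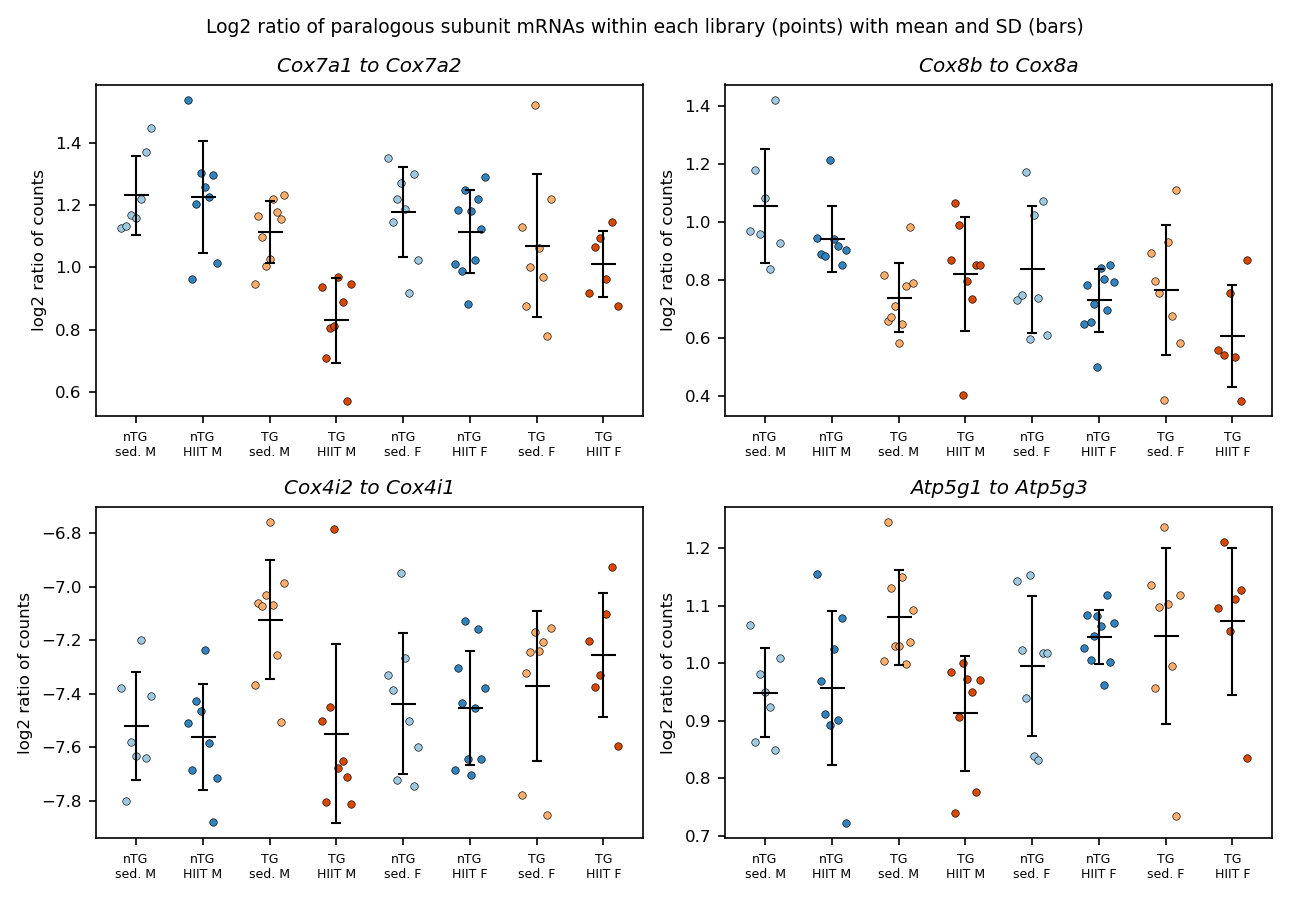
Log2 ratio of counts (vertical axis) of paralogous subunit mRNAs within each library (points) of the 8 groups, with mean and SD (bars). For Cox7a1 to Cox7a2 the trained TG males, 0.5717 to 0.9702, lie lowest among the male groups.

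Other genes of the same system were followed as lists. Of 40 complex I genes 36, 17, 7 and 20 were lower in TG hearts (males first, each sex sedentary before trained), with Ndufb4 higher each time (named after its values were seen). With training in TG males 18 of the 40 were higher and 1 lower, against 10.3% and 7.6% of all genes. Complex II, the succinate dehydrogenase, had 4, 3, 0 and 5 of 8 genes lower in that order. Assembly factors were lower in 8, 6, 1 and 5 of 25 for complex IV, 2, 1, 0 and 1 of 6 for complex III, and 3, 1, 0 and 2 of 6 for the ATP synthase. Of all genes 11.2%, 8.31%, 2.78% and 9.43% were lower in these comparisons, so that counts of 1 stand near the background. Pet100, a complex IV assembly factor named after its values were seen, was higher in sedentary males (0.38, adjusted p = 0.015). Cmc2, a complex IV assembly factor, had a mean log2 difference of -0.30 over the 4 comparisons. Among the carriers that export ATP and import phosphate 5, 3, 0 and 5 of 7 were lower, with Slc25a3, the phosphate carrier, at a mean of -0.20. Of the 6 mitochondrially encoded subunits of the 3 complexes 1 passed, mt-Co1 in sedentary males (-0.24, adjusted p = 0.0041), and 0 in the other 3 groups. In the mean of the 4 comparisons mt-Co1, mt-Cytb and mt-Atp8 were lower (-0.13, -0.11 and -0.13). With training in TG males mt-Co1, 1 of these 6, was higher (0.25, adjusted p = 0.0040), against 10.3% of all genes. Between sexes mt-Co2 was lower in sedentary nTG females than males (-0.36, adjusted p = 0.044). Supercomplex and cristae factors had 5, 3, 0 and 3 of 9 lower.

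Of 12 regulators of respiratory genes 4, 3, 1 and 3 were lower in TG hearts in the 4 comparisons and 0 higher. Esrrb, an estrogen-related receptor, had a mean log2 difference of -0.25 ± 0.03 and Perm1, a muscle coactivator partner, -0.15 ± 0.02. With training in TG males 5 were higher and 1 lower, against 10.3% and 7.6% of all genes. The higher ones were led by Mterf3 (0.29, adjusted p = 0.0022) and Tfam, the mitochondrial DNA packaging factor (0.22, adjusted p = 0.0037). This training comparison followed transcript GC across all genes. The regulators, complex I and the mitochondrially encoded subunits were not followed under the GC offset.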

How the data were processed

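Total RNA of 64 mouse hearts was depleted of ribosomal RNA and sequenced, per the labels' protocols. The authors deposited whole-number gene counts, by Ensembl identifier, and expected counts of lncRNA transcripts. The submitters' processing notes name cutadapt 2.3, FastQC 0.11.8, MultiQC 1.7, STAR 2.7.8a, RSEM 1.3.3 and the builds GRCm38 and mm10, without saying which step made which table. GENCODE M21 gave symbols for 16879 of 16913 identifiers.

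Gene columns were matched to libraries by correlation with the lncRNA columns (centred log2 CPM, pseudocount 0.5, transcripts averaging 20 counts or more), and the lncRNA columns carry the labels. Counts were tested in edgeR 4.0.16 with R 4.3.3 (TMM, filterByExpr, quasi-likelihood F test, 8 group means, Benjamini-Hochberg threshold 0.05 over all genes). On counts simulated for sedentary TG against nTG males (16913 genes, 200 of them changed 2 fold, a larger fold than that of any member) it called 206 genes, 195 of the changed and 11 others. Isoform ratios were compared by exact permutation with SciPy 1.17.1.

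The members and lists were chosen with earlier results of these data known. Named with values are, per complex, the 3 members with the smallest p of the mean genotype difference, every called member where 5 or fewer were called and otherwise the 3 rising and 3 falling with the smallest p, and the isoform families. From the other lists at most 2 genes with the smallest p are named.

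Alternatives were DESeq2 1.42.0, limma 3.58.1 voom with quality weights, median-of-ratios factors, library sizes without mitochondrial genes, no filter or a minimum mean of 50 counts, fits of only the contrast's groups, columns by name, a Spearman match, the replicate number as a block and leaving out each library. Scaling to cardiomyocyte markers, the isoform ratios and a GC offset (lowess span 0.3) were added after seeing the data.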

Additional observations from a re-analysis of the deposited data

Results flagged for a closer look

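Values are listed here where the highest or lowest library of a group of 4 to 10 stood off from the others by more than Dixon's 95% limit. This was met in 28 of 264 groups of values, and chance alone meets it in about 1 in 20, or 13.2 of 264. The members share libraries, so these are not independent.

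Trained TG male replicate 4 was low. Its median log2 deviation was -0.4815 for complex III, -0.4529 for complex IV and -0.4676 over all members, where the other 7 libraries lay between -0.2048 and 0.01655 for complex III. It was also lowest for Atp5a1 (2468 CPM, others at least 3190), Cox4i1 (521.4 CPM), Cox7a2l (88.61 CPM), Cox8b (87.85 CPM), Uqcrc1 (913.7 CPM) and Uqcrfs1 (262.9 CPM). The same library had the lowest cardiomyocyte marker sum, 51798 CPM, and the highest fibroblast sum, 1897 CPM. Their part in these values was not tested.

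Sedentary TG female replicate 7 was high. Its median log2 deviation was 0.0499 for the ATP synthase (others -0.3876 to -0.1921) and 0.6326 for cytochrome c. It was highest for Atp5f1 (355.9 CPM), Atp5g3 (304.8 CPM), Atp5h (340.2 CPM), Cox4i1 (762.5 CPM), Cox6c (229.3 CPM), Cox7a1 (210.8 CPM), Cycs (236.4 CPM, others 123.7 to 149.1) and Uqcrfs1 (357.5 CPM), and lowest for Atp5d (352.2 CPM). Its GC tilt, 0.490, was the highest of all libraries. The part of this tilt was not tested for the single library.

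Single values stood apart in other groups. Trained TG female replicate 6 had low Cox6a2 (475.1 CPM) and high Cox7a2l (102 CPM). Trained nTG females had low Atp5b in replicate 4 (3864 CPM) and low Cox7a1 in replicate 5 (188.8 CPM). Among the other nTG groups Atp5g2 was low in sedentary male replicate 6 (79.83 CPM), Cox8b high in trained male replicate 4 (178.5 CPM) and Uqcr11 high in sedentary female replicate 7 (209 CPM). Cyc1 was high in sedentary TG female replicate 4 (408.7 CPM).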

How the results depend on the processing

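The count of called members in sedentary TG against nTG males stayed within 29 to 36 when any library was left out, and 33 under the GC offset. It was 14 with libraries scaled to the cardiomyocyte markers and 0 with columns by name. Columns by name also gave 0 in the other 3 genotype comparisons, for their mean, for training in TG males and between sexes, and 1 for training in nTG males. The marker scaling gave 5 in trained males, 2 in sedentary females, 1 in trained females, 12 for the mean of 4 and 0 between sexes. The GC offset gave 9 in trained males and 7 in trained females. Fits of only the contrast's groups gave 10 in trained males, 2 in sedentary females and 0 between sexes. Limma voom gave 12 in sedentary and 26 in trained females, 5 for genotype by training in males, 11 for training by sex in TG mice and 2 between sexes. DESeq2 gave 1 for training in nTG females, 1 for training by sex and 2 between sexes. The cause of these moves was not tested, apart from what each setting changes by construction.

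Leaving out single libraries gave 9 to 18 in trained males, 2 to 9 in sedentary females, 8 to 18 in trained females, 15 to 27 for training in TG males, 37 to 41 for the mean of 4, 0 to 6 for training by sex and 0 to 3 between sexes. In sedentary females it was 2 without nTG replicate 2, 3, 6, 7 or 8 or TG replicate 2, 3, 4, 6 or 8. Elsewhere, each library that moved a count by over 1.5 times is named with the result. The ratios of isoforms kept their sign: 0.1102 to 0.1505 and -0.1796 to -0.1424 for Atp5g1 to Atp5g3, 0.3503 to 0.4508 for Cox4i2 to Cox4i1, -0.4323 to -0.3502 and -0.3048 to -0.2471 for Cox7a1 to Cox7a2, and -0.3523 to -0.2547 for Cox8b to Cox8a.

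The replicate numbers do not pair the mice: correlations of same-numbered libraries ran from -0.288 to 0.337 with medians of -0.053 to 0.082. With the replicate block 9 members were called in trained females, and with the block and the GC offset 4 there and 2 between sexes. Other counts stayed within 1.5 times under the block.

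Of 90 calls of named members, columns by name lost 90, the marker scaling 54, the GC offset 22, the GC offset with the block 24, fits of fewer groups 13, the block 6 and DESeq2 1. Under the marker scaling the log2 difference changed sign in sedentary males for Atp5d (0.0045), Atp5g1 (0.0197) and Cox6b1 (0.0044), in trained females for Atp5g1 (0.0126) and Cox8a (0.0351), and in the mean of 4 for Atp5f1 (0.024), Uqcr10 (0.0265), Cox6a1 (0.016), Cox6b1 (0.0072), Cox7a2l (0.0059) and Cox8a (0.0419).

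By name it changed sign in sedentary males for Cyc1 (0.0071), and in trained males for Atp5b (0.0811), Atp5d (0.033), Atp5g1 (0.0583), Atp5g2 (0.0482), Atp5g3 (0.0763), Cyc1 (0.0336), Uqcrc1 (0.0531), Cox5b (0.0972), Cox6a1 (0.0352), Cox6a2 (0.1464), Cox6b1 (0.0245), Cox7a1 (0.0881), Cox8a (0.0327), Cox8b (0.0745) and the Cox7a1 to Cox7a2 ratio (0.0633). In trained females these were Atp5a1 (0.0269), Atp5d (0.0116), Atp5g3 (0.0288), Uqcrfs1 (0.0234), Cox4i1 (0.0312), Cox7a1 (0.0146) and Cox8b (0.0054), and for training in TG males Atp5a1 (-0.0801), Atp5f1 (-0.0763), Atp5g3 (-0.0682), Atp5h (-0.0456), Uqcrfs1 (-0.1447), Cox4i1 (-0.0789), Cox4i2 (0.0818), Cox7a2l (-0.0544), Cox7b (-0.0269) and Cycs (-0.027). The others were Uqcr10 (0.0134) and Cox7a2l (0.0033) in the mean of 4 and Uqcrc1 between sexes (0.0484). No other setting turned a named call. Values that did not pass could change sign, as those of Cycs given with its results. The effect of depth on the calls was not tested; the scarcest member was Cox6b2, at 0.5038 to 1.141 CPM per kilobase.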
